A study of Mus musculus with 7 samples.

Results

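Beta cluster 5 is a group of mouse pancreatic islet cells that carried amylin and Pdx1 mRNA near the level of the main beta cluster, little mRNA of the beta cell factor Mafa and, in a minority of its cells, large amounts of pancreatic polypeptide mRNA. Its members are the cells that the authors' joint clustering of gene counts, deposited as a cell table, placed in 5_beta. They numbered 371 of the 5907 kept cells. Replicate 1 held 315 of them, which was 6.54% of its 4814 cells (exact 95% interval 5.86 to 7.28), and replicate 2 held 56, which was 5.12% of its 1093 cells (3.89 to 6.60). Within the beta clusters the shares were 13.8% and 12.9%. The neighbours used for comparison were beta cluster 0 (882 and 205 cells), the PP cluster 6 (283 and 41 cells) and delta cluster 3 (435 and 157 cells), which the authors call 0_beta, 6_ppy and 3_delta. No barcode of cluster 5 occurred in both libraries, against 5 shared barcodes among all kept cells.

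The study prepared droplet single-cell libraries from islets in 7 samples, and tables of 2 of them were analysed here. Both came from female C57BL/6 mice aged 10 weeks, with no genetic change or treatment named, and both used a modified 10x 5' chemistry (added nucleotides and longer extension). Insulin cDNA had been removed with Cas9 and guides against it, and the rest was read full length on a Nanopore sequencer. The labels do not say whether the 2 libraries came from separate animals, so any agreement or p-value below covers only the spread between these 2 libraries, which may be technical.

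Islet endocrine cells are commonly sorted by the hormone they make: beta cells insulin and amylin (Iapp), alpha cells glucagon (Gcg), delta cells somatostatin (Sst), and PP cells pancreatic polypeptide (Ppy). Peptide YY (Pyy) is a close relative of Ppy that several islet cell types express. Beta cells vary among themselves: MAFA, a transcription factor that drives insulin gene expression, and urocortin 3 (Ucn3) are used as signs of a mature state, whereas CD81, a membrane protein, and retinol-binding protein 4 (Rbp4) have been used to mark subsets.

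Depth differed between the libraries, and cluster 5 lay near the median of all cells in each but below cluster 0 in replicate 1. A cell of cluster 5 had a median of 2119 unique molecular identifiers (UMIs, each counting 1 captured molecule) in replicate 1 and 10880 in replicate 2, against 2110 and 9949 over all cells and 2728.5 and 10550 in cluster 0. The PP cluster was deeper, with medians of 2796 and 13076, and delta cluster 3 had 2068 and 8991. In sum cluster 5 held 726630 and 654566 UMIs. Levels are given in CPM (counts-per-million, UMIs of a gene over all UMIs of such a sum), and their exact Poisson intervals, like the exact binomial intervals of shares, cover counting error only. Because the authors built the clusters from these genes, levels and ratios of genes between clusters are a description and carry no p-value.

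Measured against its label, cluster 5 held Iapp, Pdx1 and Nkx6-1 near the level of cluster 0 and little of the delta cell factor Hhex. Iapp stood at 108714 CPM in replicate 1 and 91505 in replicate 2, against 128475 and 103090 in cluster 0, 5962 and 9503 in the PP cluster and 34644 and 37194 in delta cluster 3. Single cells of cluster 5 spent a median of 10.7% and 9.50% of their UMIs on Iapp (range 0.265 to 22.7% and 5.22 to 12.9%). Ins2, which remained after insulin depletion at 5377 and 4484 CPM, was at 8628 and 6505 in cluster 0 and no higher than 805 in the other pair of clusters. Pdx1, a master regulator of the pancreas and beta cell, measured 213 and 171 CPM beside 206 and 167 in cluster 0. Nkx6-1, which keeps beta cells from other endocrine fates, measured 315 and 278 beside 360 and 368. Hhex, the delta cell factor, was at 4.13 and 9.17 CPM beside 425 and 300 in delta cluster 3. Ghrelin (Ghrl), the hormone of another islet cell type, had 0 UMIs in each library, and the 8 stellate and pericyte markers summed to 1 and 0 UMIs.

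The label's Ppy and Sst were present in the sums but unevenly spread over cells. Ppy reached 6924 CPM (6734 to 7118) and 16715 (16403 to 17031), against 135 and 371 in cluster 0, 194058 and 130783 in the PP cluster and 25476 and 36948 in delta cluster 3. Pyy reached 3450 and 11576 CPM, against 148 and 416 in cluster 0. Both lie close together on the minus strand of chromosome 11 (mm10), Ppy at chr11:102099930-102101319 and Pyy at chr11:102106676-102107832. Sst stood at 1745 and 3165 CPM, against 316 and 196 in cluster 0 and 153701 and 111202 in delta cluster 3. Gcg was at 566 and 4961 CPM, beside 705 and 2061 in cluster 0. On the log2 scale with 1 CPM added to both sides, Ppy was 5.67 and 5.49 above cluster 0, Pyy 4.54 and 4.79, and Sst 2.46 and 4.01, whereas Iapp was lower by −0.24 and −0.17. Ppy, Pyy, Sst and Gcg were each higher in replicate 2 than in replicate 1 within cluster 5, while Iapp and both insulin genes were lower.

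**Figure D1:**
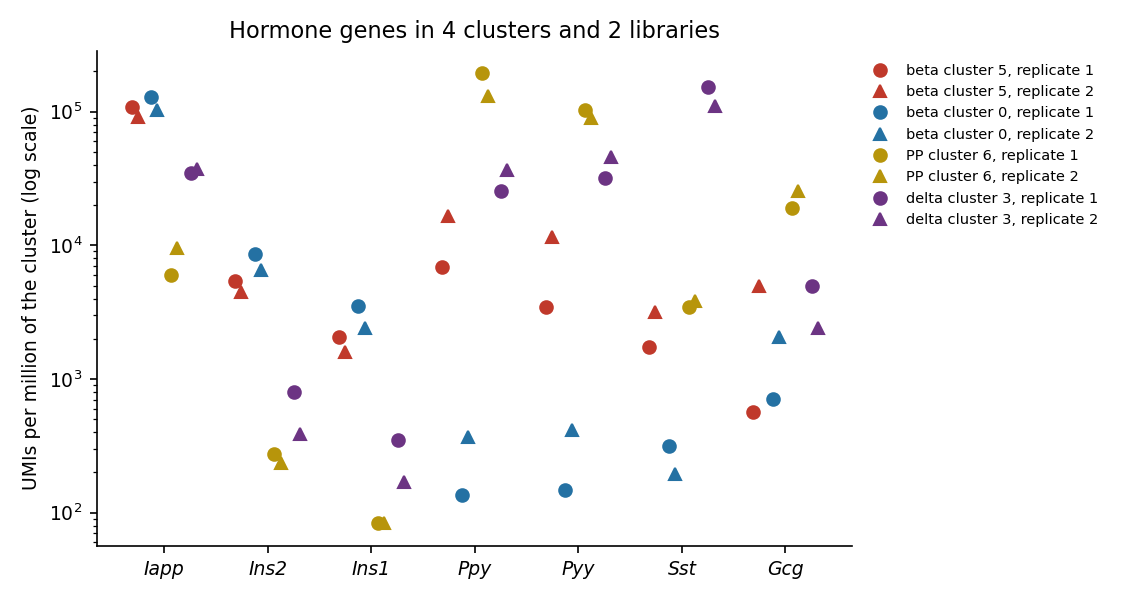
Level of 7 hormone genes, as CPM on a log axis, in beta clusters 5 and 0, PP cluster 6 and delta cluster 3; circles are replicate 1 and triangles replicate 2. Cluster 5 sits beside cluster 0 for Iapp and between cluster 0 and the PP cluster for Ppy (6924 and 16715) and Pyy (3450 and 11576).

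Cell by cell, Ppy was concentrated in a minority. The median cell of cluster 5 gave 0.0378% and 0.0772% of its UMIs to Ppy and the highest cell 15.4% and 10.7%. Cells with at least 1% Ppy numbered 46 of 315 (14.6%, 10.9 to 19.0) and 18 of 56 (32.1%, 20.3 to 46.0), and each of these also gave at least 1% to Iapp. In cluster 0 only 1 cell of each library did so (0.113% and 0.488%), whereas in delta cluster 3 it was 309 (71.0%) and 129 (82.2%). In the PP cluster 31 of 283 cells (10.95%, 7.565 to 15.19) and 7 of 41 (17.07%, 7.152 to 32.06) had at least 1% of both Ppy and Iapp. These intervals overlapped those of cluster 5 in each library, so such cells do not by themselves set cluster 5 apart from the PP cluster. Moving the cut to 0.5% gave 63 and 20 cells of cluster 5, and moving it to 2% gave 30 (9.52%) and 15 (26.8%). Ppy and Pyy often came together: 21 cells (6.67%) and 15 cells (26.8%) had at least 1% of each. The 5% of cells richest in Ppy (16 and 3 cells) held 56.3% and 32.3% of its UMIs. Cells with at least 1% Ppy had median UMI totals of 2416.5 and 13800.5, above the cluster's own 2119 and 10880.

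**Figure D2:**
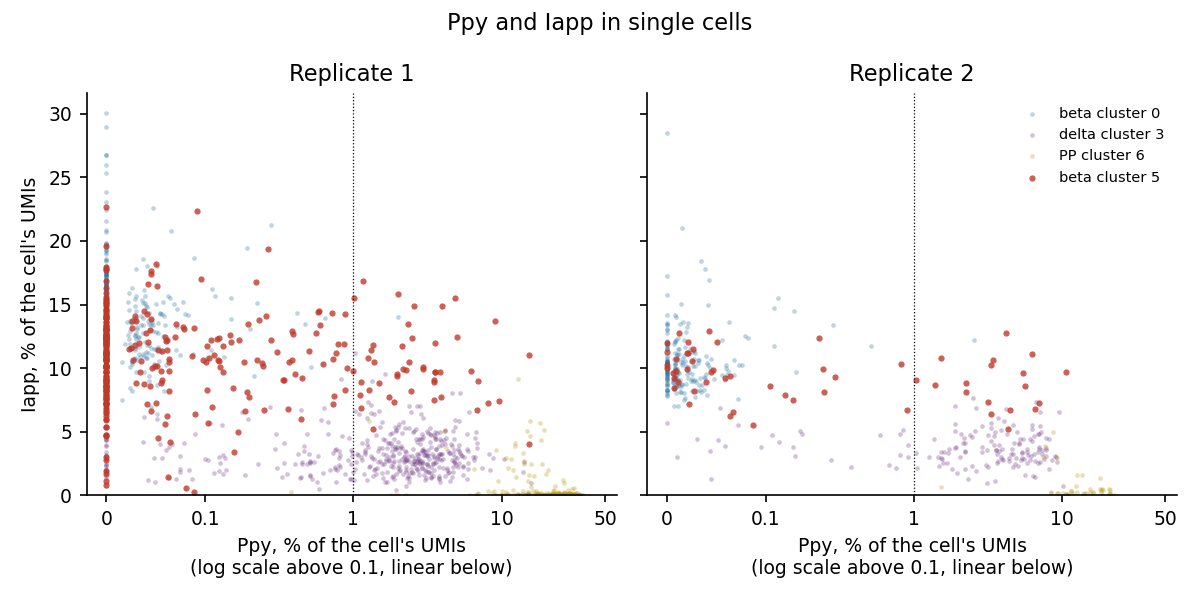
Each point is 1 cell, placed by the percent of its UMIs from Ppy (linear up to 0.1%, log above) and from Iapp; the dotted line marks 1% Ppy. Cluster 5 cells run from no Ppy up to 15.4% and 10.7% at Iapp shares mostly near their median of 10.7% and 9.50%, above most cells of delta cluster 3.

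Sst was rarer still. Its median was 0% and 0.0138% of a cell's UMIs, and only 13 cells (4.13%) and 3 cells (5.36%) reached 1%. The 16 and 3 cells richest in Sst held 81.2% and 89.7% of the cluster's Sst UMIs. After every cell was thinned to 1000 UMIs (309 and 56 cells of cluster 5 were deep enough), Sst was seen in 24.6% and 26.8% of cells, beside 35.2% and 69.6% before thinning. After thinning the share was 8.39% and 9.27% in cluster 0, 11.99% and 11.9% in cluster 2 and 19.2% and 23.3% in cluster 4, and 21.3% and 31.7% in the PP cluster. Quiescent stellate cells, which should lack Sst, gave 19.0% and 29.6%, from 42 and 27 cells after 76 and 0 were left out as too shallow. The share in cluster 5 was thus above that of cluster 0 in each library and above that of cluster 2 in replicate 1. In replicate 2 its interval (15.8 to 40.3) overlapped that of cluster 2 (5.86 to 20.8). The share was not separable from that of cluster 4, PP and stellate cells, so a single Sst UMI does not mark a cell here. For Ppy the thinned share was 43.7% and 60.7% (54.0% and 92.9% unthinned), against 16.7% and 18.5% in stellate cells and 6.92% and 17.6% in cluster 0. It was 10.7% and 23.8% in cluster 2 and 13.1% and 35.6% in cluster 4. Cells with at least 1% of both Ppy and Sst numbered 5 and 1, and those with at least 1% Gcg 3 and 2. The name "Ppy and Sst" therefore describes the sum of the cluster rather than its typical cell: 222 of 315 (70.5%) and 30 of 56 (53.6%) cells had Ppy, Pyy, Sst and Gcg each under 0.5%.

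Scores of the doublet caller Scrublet, which rates each droplet's likeness to a simulated pair of cells, were higher here than in the other beta clusters. The median score was 0.0904 and 0.135, beside 0.0757 and 0.0748 in cluster 0. Of the 6% of droplets with the highest scores in each library, cluster 5 held 36 of its 315 (11.4%) and 15 of its 56 (26.8%), against 4 (0.454%) and 0 in cluster 0 and 11 (3.89%) and 1 (2.44%) in the PP cluster. The share was 15.2% and 27.8% among cells with at least 1% Ppy, 4 of 13 and 0 of 3 among cells with at least 1% Sst, and 23 of 222 and 6 of 30 among those low in all 4 hormones. The 3 and 2 cells with at least 1% Gcg were in that top group in 2 and 2 cases. The caller's automatic threshold marked 6 of all cells in replicate 1 (0.125%), too few to have worked, and 14 (1.28%) in replicate 2, where 5 belonged to cluster 5. Every gene count below was repeated without the top 6%, and also in the low-hormone cells alone, a subset defined after the data had been seen.

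Set against beta cluster 0, cluster 5 held most measured genes within 2-fold, had several beta genes at a small part of the cluster 0 level, and was higher in genes such as Ppy, Pyy, Gpx3 and Rbp4 that PP or delta cells express strongly. A gene was called apart when its ratio was at least 2-fold in the same direction in each library, among 3096 genes with a mean of at least 50 CPM. By this rule 83 genes were apart (2.68% of those measured), 58 higher (1.87%) and 25 lower (0.807%). The median of all genes was −0.02 on the log2 scale, and −0.14 with TMM scaling. Of the 83, 73 remained without the cells of highest doublet score and 59 in the low-hormone cells, and none changed direction in either library without the cells of highest doublet score. In the low-hormone cells 5 of them (Pyy, Cela1, Atf3, Hspb1 and Arid5b) had the opposite sign in replicate 2 and none in replicate 1.

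**Figure D3:**
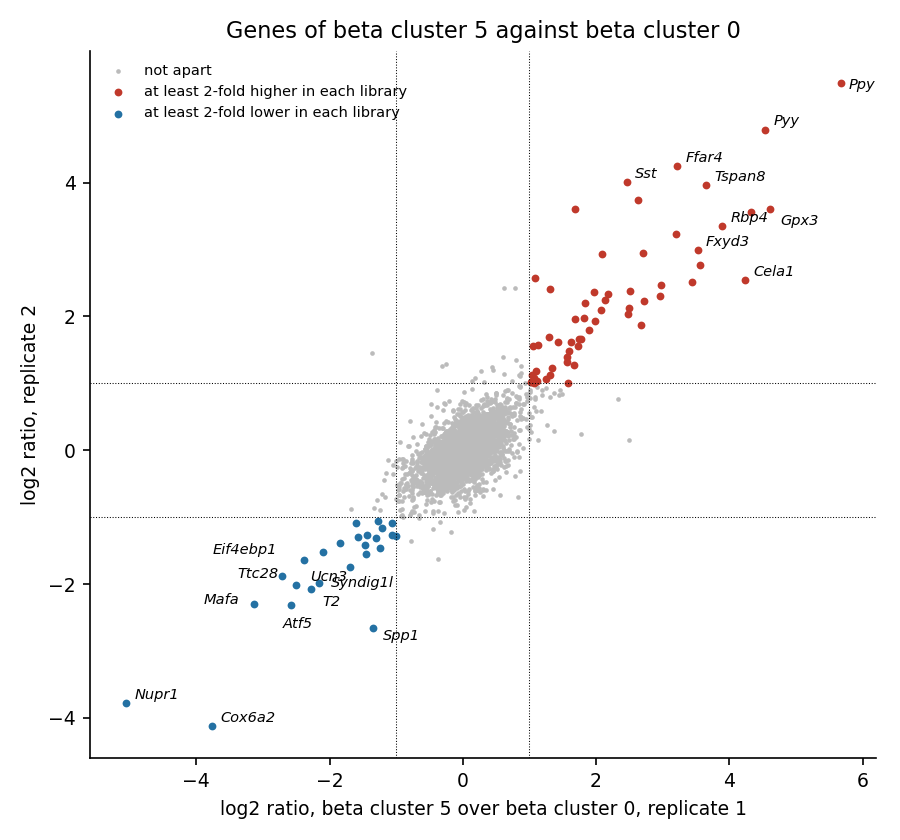
Log2 ratio of each of 3096 genes between beta clusters 5 and 0, replicate 1 on the horizontal and replicate 2 on the vertical axis; coloured points are the 83 genes at least 2-fold apart in each library. Ppy, Pyy, Gpx3, Tspan8 and Rbp4 lie at the upper right, Nupr1, Cox6a2 and Mafa at the lower left.

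Among the 58 higher genes, several were not hormone genes. Gpx3, a secreted glutathione peroxidase that removes peroxides, was at 1051 and 463 CPM against 42.2 and 36.9 in cluster 0, a log2 difference of 4.61 and 3.61. Gpx3 was at 1117 and 514 in the low-hormone cells. Their Ppy was at 472 and 633 CPM, still above the 135 and 371 of cluster 0. Whether droplets with 2 cells added to these levels was not tested. Rbp4 measured 1281 and 701 CPM against 85.2 and 67.6, and 1280 and 645 in the low-hormone cells. Ffar4, a long-chain fatty acid receptor that lies next to Rbp4 on chromosome 19 (chr19:38097071-38114263 and chr19:38116629-38125281), measured 48.2 and 35.1 against 4.30 and 0.90. Cd81 stood at 482 and 452 CPM against 60.6 and 81.1, level with the 586 and 615 of the PP cluster and the 397 and 438 of delta cluster 3. After thinning, 33.7% and 39.3% of cluster 5 cells had a Cd81 UMI, against 5.90% and 6.34% in cluster 0.

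Tspan8, another tetraspanin, was at 213 and 205 CPM against 16.0 and 12.2, and Fxyd3, a regulator of the sodium pump, at 136 and 179 against 10.9 and 21.6. Both stayed near these levels in the low-hormone cells (209 and 155, and 137 and 192). Fxyd3 was above cluster 0 by 3.52 and 2.99 and about level with the PP and delta clusters. Etv1, an ETS transcription factor, was at 24.8 and 33.6 against 4.69 and 5.86, and far higher in alpha cluster 1 (335 in each library). The elastase Cela1 was at 17.9 and 51.9 against 0 and 8.11, and only 3 of its 13 and 1 of its 34 UMIs came from the low-hormone cells. Gpx3 and Rbp4 are high in other islet cells too, Gpx3 at 3684 and 2882 CPM in the PP cluster and Rbp4 at 8139 and 6519 in delta cluster 3.

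The 25 lower genes included regulators and stress genes that cluster 0 expressed strongly. Nupr1, a small chromatin-associated protein induced by stress, was at 6.88 CPM (2.23 to 16.1) and 18.3 (9.47 to 32.0) against 261 and 265 in cluster 0, a log2 difference of −5.05 and −3.78. Cox6a2, the heart and muscle form of a cytochrome c oxidase subunit, was at 23.4 and 16.8 against 332 and 308. Mafa was at 26.1 CPM (15.7 to 40.8) and 79.4 (59.3 to 104) against 238 and 395, lower by −3.14 and −2.30. With 1000 UMIs per cell it was seen in 0.647% and 7.14% of cluster 5 cells, against 20.4% and 29.8% in cluster 0. Ucn3 stood at 248 and 357 against 1064 and 1029. All 4 stayed far below cluster 0 in the low-hormone cells, with Nupr1 at 6.13 and 9.12, Cox6a2 at 20.4 and 21.3, Mafa at 22.5 and 94.3 and Ucn3 at 252 and 450 CPM.

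Low Mafa also set the cluster apart from the other beta clusters of the same libraries, whereas Nupr1 was low in cluster 2 too. Beta clusters 2 and 4 held 213 and 370, and 261 and 476 CPM of Mafa. Nupr1 was at 33.8 and 54.6 in cluster 2 and at 145 and 307 in cluster 4. Gpx3 ran the other way, at 251 and 180 in cluster 2 and 155 and 97.0 in cluster 4, so cluster 5 was highest of the 4 beta clusters in each library. Outside the beta clusters, cluster 8, which the authors call 8_delta, also held much Iapp (83953 and 67521 CPM). It had Gpx3 at 1017 and 697, above cluster 5 in replicate 2. Its Mafa was at 66.5 and 171 and its Nupr1 at 45.4 and 75.3, so these traits are not particular to cluster 5. Further lower genes were Atf5, a stress-responsive transcription factor (67.4 and 65.7 against 409 and 332), Eif4ebp1, a repressor of translation initiation (23.4 and 39.7 against 126 and 126), and Ttc28 (37.2 and 59.6 against 216 and 243). T2 and Syndig1l were lower by −2.27 and −2.07 and by −2.16 and −1.98. Spp1, the secreted phosphoprotein osteopontin, rested on 2 and 1 UMIs.

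**Figure D4:**
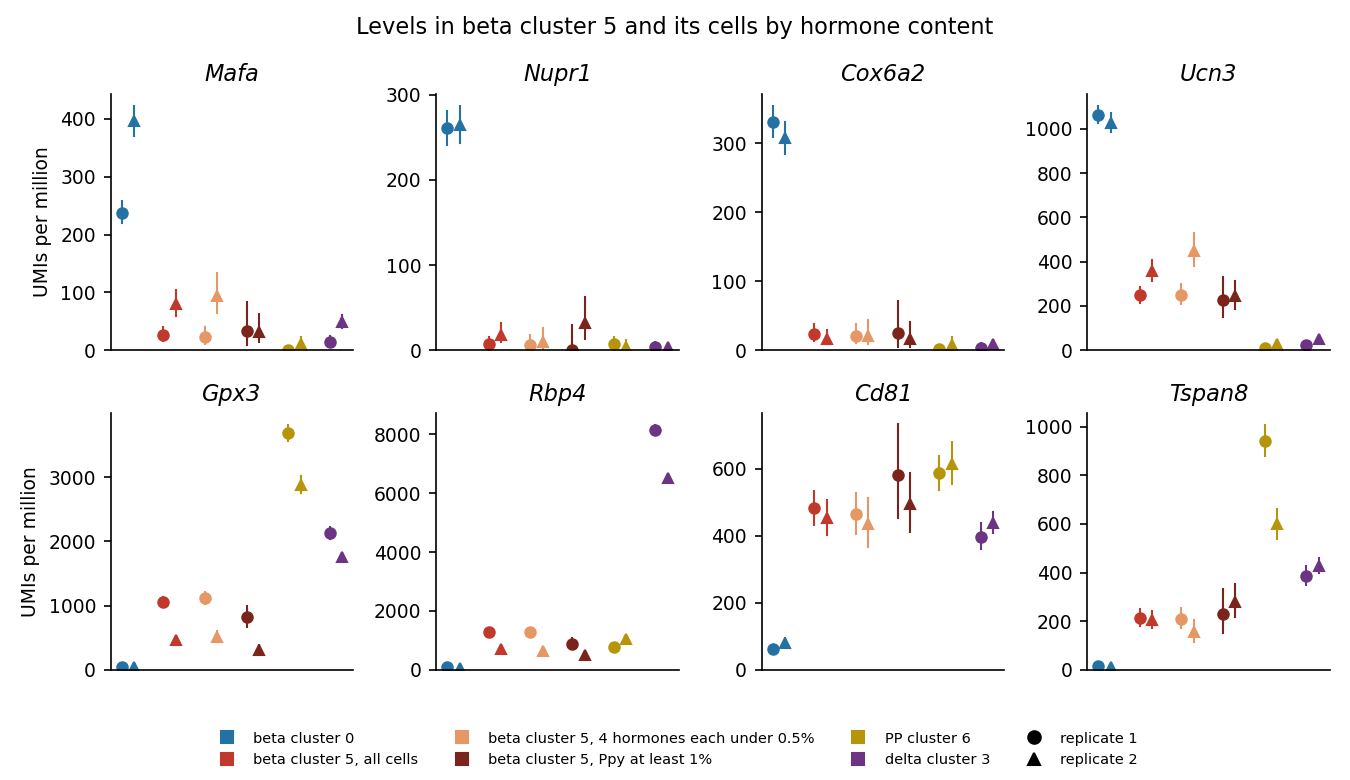
Level of 8 genes, as CPM with exact 95% Poisson intervals, in cluster 0, all cells of cluster 5, its low-hormone cells, its cells with at least 1% Ppy, PP cluster 6 and delta cluster 3. Mafa, Nupr1, Cox6a2 and Ucn3 are low and Gpx3, Rbp4, Cd81 and Tspan8 high in both subsets of cluster 5, with Gpx3 at 1117 and 514 in the low-hormone cells against 42.2 and 36.9 in cluster 0.

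Read by gene list, the beta identity genes of cluster 5 were reduced in part. Of 25 listed, 20 passed the expression filter, and 6 of these were lower by the rule and 0 higher, with a median of −0.73. The largest differences were those of Nupr1, Cox6a2, Mafa and Ucn3; Trpm5, a calcium-activated cation channel (220 and 263 against 790 and 688), and Sytl4, the granule protein granuphilin (67.4 and 71.8 against 220 and 242), were the others. Slc2a2, the main mouse beta cell glucose transporter, was at 581 and 281 against 999 and 722, and G6pc2, the islet glucose-6-phosphatase, at 1419 and 1224 against 2655 and 1875, neither of them 2-fold apart in both libraries. Of 6 PP markers measured, 4 were higher (Ppy, Pyy, Tspan8 and Etv1, median 3.03). Of 6 delta markers 3 were higher (Ffar4, Rbp4 and Sst, median 2.42). These counts were partly set by the filter, which some markers passed only through the PP or delta cluster. Etv1 was at 261 and 322 CPM in the PP cluster, and Ffar4 at 94.9 and 107 in delta cluster 3. Of 4 alpha markers 1 was higher, the glutamate receptor Gria2. PP markers summed to 1.11% and 2.91% of UMIs, beside 0.0766% and 0.127% in cluster 0, and delta markers to 0.311% and 0.395%, beside 0.0434% and 0.0296%. Ghsr and Ptprz1 were at 0 UMIs in each library. Whether RNA of other cells took part in these sums was not tested.

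Most other lists held no gene or few genes apart from cluster 0, and with 2.68% of all measured genes apart an empty list of this size is no result about it. None of 23 measured genes of protein folding and the unfolded protein response was apart (median 0.09), nor any of 9 glucose-sensing genes (−0.28), 19 nuclear genes of oxidative phosphorylation (−0.32) or 24 ribosomal protein genes (−0.29). Of 17 genes of granules and prohormone processing only Sytl4 was apart. Within that list Chga, chromogranin A, was at 34712 and 28975 CPM against 20735 and 16039, a log2 difference of 0.74 and 0.85. Chgb was at 2477 and 1790 against 882 and 995. Of 16 immediate early and stress genes, Jun (198 and 431 against 79.7 and 196) and Atf3 were higher. Atf3 rested on few UMIs in replicate 1 (5.50 CPM) and fell to 4.09 and 3.04 CPM in the low-hormone cells, where Jun was at 184 and 249. No cycling gene was apart. The share of UMIs from the mitochondrial genome was 1.19% and 2.69%, beside 1.60% and 3.75% in cluster 0.

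Promoter sequences are shown for the genes at both ends of this comparison: Nupr1, the lowest gene, and Ppy and Pyy, the highest pair. Each is the 250 bases before the RefSeq start (GRCm38.p6), 5′ to 3′ along the gene. Capitals in Nupr1 (chr7:126625471-126625720, minus strand) mark TTGCATCA, the reverse of TGATGCAA, a motif bound by ATF4 with C/EBP proteins. Capitals in Ppy (chr11:102101320-102101569) and Pyy (chr11:102107833-102108082) mark TGCTGA, the core recognised by MAF proteins.
Nupr1: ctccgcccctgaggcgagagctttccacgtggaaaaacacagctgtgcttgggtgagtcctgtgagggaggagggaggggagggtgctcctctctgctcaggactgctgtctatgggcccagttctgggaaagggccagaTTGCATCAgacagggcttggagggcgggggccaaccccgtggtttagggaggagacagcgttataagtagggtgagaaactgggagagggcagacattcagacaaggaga
Ppy: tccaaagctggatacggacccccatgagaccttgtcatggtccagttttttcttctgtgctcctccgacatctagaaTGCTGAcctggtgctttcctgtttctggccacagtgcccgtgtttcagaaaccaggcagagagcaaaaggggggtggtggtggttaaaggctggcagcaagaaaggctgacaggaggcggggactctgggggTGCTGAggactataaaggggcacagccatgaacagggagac
Pyy: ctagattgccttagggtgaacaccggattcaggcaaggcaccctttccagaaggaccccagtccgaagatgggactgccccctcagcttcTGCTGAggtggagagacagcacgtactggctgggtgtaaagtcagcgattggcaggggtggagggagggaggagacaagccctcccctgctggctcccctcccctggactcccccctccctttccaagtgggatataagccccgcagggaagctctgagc
Searched on both strands, TGATGCAA was in 1 of 17 lower genes with a promoter in the table (Nupr1), in 2 of 46 higher genes (Arid5b and Atf3) and in 0.791% of all 32851 promoters. The shorter TGCTGA was in 3 of 17 lower and 14 of 46 higher genes, and in 16.1% of all promoters. A gene was counted if any of its promoters matched, whereas the share of all promoters counts each promoter singly. The gene counts and the promoter shares are thus in unlike units and cannot be compared directly. A match shows only that the letters are in this window.

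Against the PP cluster, which shares Ppy and Pyy, cluster 5 differed in many more genes. There 346 of 3096 genes were apart (11.2%), 303 higher (9.79%) and 43 lower (1.39%), at a median of 0.31 over all genes. The split depends on scaling, because hormones fill much of the PP cluster's RNA: with TMM scaling 215 genes were apart, 144 of them higher (67.0% against 87.6%), with DESeq2 size factors 218, 139 of them higher (63.8%), and with hormones left out of the totals 71.8% were higher. Scaling by TMM moved the median of all genes to −0.10. Cluster 5 was far above the PP cluster in Car15, a membrane-anchored carbonic anhydrase (5.25 and 5.96), G6pc2 (5.44 and 4.01), Fkbp1b, a regulator of calcium release channels (4.26 and 4.69), Ins1 (4.59 and 4.24) and Ins2 (4.29 and 4.24). Cd79a, Msln, Enho, Fam151a and Papss2 completed the 10 largest. Of 20 beta identity genes 17 were higher and 0 lower (median 3.26).

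The genes lowest in cluster 5 relative to the PP cluster were its hormones and several other genes. Spp1 was at 2.75 and 1.53 CPM against 543 and 317, Rcn3, a calcium-binding protein of the endoplasmic reticulum, at 12.4 and 24.4 against 390 and 357, and Pappa2, a protease of insulin-like growth factor binding proteins, at 9.63 and 15.3 against 164 and 172. Etv1, which was above cluster 0, was still below the PP cluster by −3.35 and −3.22. Atf3, Gap43, Gcg, Ppy and Pyy were also among the 10 lowest. All 4 alpha markers measured were lower than in the PP cluster (median −2.79), as were 7 of 16 immediate early and stress genes, among them Fos (484 and 819 against 1228 and 3781). These counts were partly set by the expression filter, which some genes, such as Pappa2, passed only through the PP cluster.

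Against delta cluster 3, 182 genes were apart (5.88%), 129 higher (4.17%) and 53 lower (1.71%), with a median of 0.23 over all genes. With TMM scaling 55.2% of the calls were higher, with DESeq2 size factors 56.3% and with hormones left out of the totals 53.8%, against 70.9%. Several delta genes were near zero in cluster 5, whereas others such as Rbp4, Gpx3 and Tspan8 were not. Gap43, a growth cone protein, was at 0 and 1.53 CPM against 424 and 296, Cd24a, a surface sialoglycoprotein, at 2.75 and 9.17 against 495 and 535, Ly6h at 0 and 9.17 against 537 and 448, and Dpp6, a potassium channel partner, at 6.88 and 4.58 against 247 and 180. In the low-hormone cells Hhex, Cd24a, Gap43, Ly6h and Dpp6 all had 0 UMIs in each library, which allows up to 6.13 and 9.12 CPM. Arg1, Spp1, Hspb1 and Caly were also among the 10 lowest. Higher genes were led by Car15 (5.05 and 4.88), Tmsb15b2, Mt2, Ociad2, Bace2, Cd79a, Fam151a, G6pc2 (3.62 and 3.02), Skap1 and Slc30a8, the zinc transporter of insulin granules (3.44 and 2.97). Of 20 beta identity genes 14 were higher, and 5 of 6 delta markers were lower (median −5.71). Only 6 of 13 listed delta markers passed the expression filter. Hhex, Cd24a and Gap43 passed it only through delta cluster 3, so that they were lower was set in advance and is no separate result.

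Few genes lay outside the range of all 3 neighbours. Car15 was at 454 and 367 CPM, against 127 and 78.8 in cluster 0, 10.9 and 4.91 in the PP cluster and 12.7 and 11.5 in delta cluster 3. In the low-hormone cells it was at 403 and 301. It was the only gene at least 2-fold above all 3 in each library, and Spp1 the only gene as far below. At 1.5-fold 7 genes were above: Car15, Klf5, a zinc finger transcription factor (122 and 93.2 against 73.0 and 45.0 in cluster 0), Chga, the histone genes Hist1h1c and Hist1h4h, the G protein subunit Gnai1 and H2-Q2. These genes were singled out after their values had been seen.

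The level of cluster 0 genes was far from uniform in cluster 5. For 41 genes that had at least 100 CPM in cluster 0 and at least 10-fold less in the PP cluster, the level in cluster 5 was a median of 41.8% and 40.9% of cluster 0. It ran from 2.64% (Nupr1) to 120% (Pde5a) in replicate 1 and from 5.46% (Cox6a2) to 99.6% in replicate 2. Iapp kept 84.6% and 88.8%, Slc4a7, a bicarbonate transporter, 94.9% and 83.8%, and Ins2 62.3% and 68.9%. Gad1, the enzyme that makes GABA, kept 10.5% and 9.98%, and Mafa 10.99% and 20.1%. For 19 genes high in the PP cluster and low in cluster 0 the median was 11.8% and 13.0% of the PP level, from 0.506% (Spp1) to 103% (Hist3h2ba) and from 0.481% (Spp1) to 82.0% (Sst). The Sst level of the PP cluster came from few cells: 14 and 2 of them held 90.6% and 92.1% of its Sst UMIs. Ppy kept 3.57% and 12.8% of the PP level and Pyy 3.36% and 13.0%, while Tspan8 kept 22.7% and 34.2%. For 28 delta genes low in cluster 0 it was 10.7% and 10.7% of the delta level, with Sst at 1.14% and 2.85%, Gap43 at 0 and 0.515%, Tspan8 at 55.2% and 47.8% and Gpx3 at 49.3% and 26.4%. The percentages of the 41 cluster 0 genes thus spread over more than a 10-fold range in each library. Each set was picked by a high level in the cluster that is also the denominator, a choice that can lower these percentages. By how much was not tested.

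Transcript structure gave a comparison that the gene clustering had not used. Full-length reads assign a UMI to an annotated transcript, and the share of each transcript in its gene was tested with edgeR's quasi-likelihood fit and diffSpliceDGE over 8 sums (4 clusters in 2 libraries, library as a block, 3 residual degrees of freedom), with Benjamini-Hochberg adjustment over all genes. Against cluster 0, 4 of 4046 genes passed an adjusted p of 0.05 (0.0989%), and 99 had an unadjusted p under 0.05. Among them were Gnas, Coro2b and Rasgrf1.

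Gnas, which encodes the stimulatory G protein alpha subunit and its longer variants, lies on the plus strand of chromosome 2 and passed in all 3 comparisons. The form Gnas-207 (chr2:174330006-174346744, 11 exons) made up 11.9% of its UMIs in cluster 5 of replicate 1 (28 of 236, exact 95% interval 8.03 to 16.7) and 14.4% in replicate 2 (13 of 90, 7.92 to 23.4). In cluster 0 it made up 25.5% (143 of 561) and 31.0% (92 of 297), in cluster 2 25.2% and 18.5%, and in cluster 4 24.8% and 28.8%. Its share in cluster 5 thus lay below that of each other beta cluster in each library. In replicate 2, however, the interval of cluster 5 contained the 18.5% of cluster 2. The share lay above that of the PP cluster (6.51% and 4.41%), delta cluster 3 (1.62% and 1.23%) and alpha cluster 1 (1.12% and 1.58%). Gnas-207 was singled out because its share fell most against cluster 0 in these same data. Gnas-211, which starts far upstream (chr2:174284320-174346744, 13 exons), ran the other way, at 12.7% (30 of 236, 8.74 to 17.6) and 3.33% (3 of 90, 0.693 to 9.43) beside 1.96% and 0.673% in cluster 0. In the second library its interval in cluster 5 overlapped that of cluster 0 (0.0820 to 2.41), and it rested on 3 UMIs.

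For the gene as a whole the difference from cluster 0 had an adjusted p of 4.14e-05 (edgeR), with 3.85e-05 to 1 over 6 alternatives, 5 of which passed; without the library as a block it was 1. Of the single forms Gnas-211 passed the edgeR test against cluster 0 (adjusted p 2.25e-05) and Gnas-207 did not (0.931). In the low-hormone cells the gene's adjusted p was 8.01e-05 (edgeR), with Gnas-207 at 10.3% (18 of 174) and 7.41% (4 of 54). Gnas-211 was at 13.8% there in replicate 1 and had 0 of 54 UMIs in replicate 2. Against delta cluster 3, where Gnas-211 made up 62.3% and 67.9%, the gene's adjusted p was 2.67e-21 (edgeR; again 1 without the block). Against the PP cluster the form furthest apart was Gnas-221, at 2.12% and 4.44% in cluster 5 beside 14.8% and 21.3%.

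**Figure D5:**
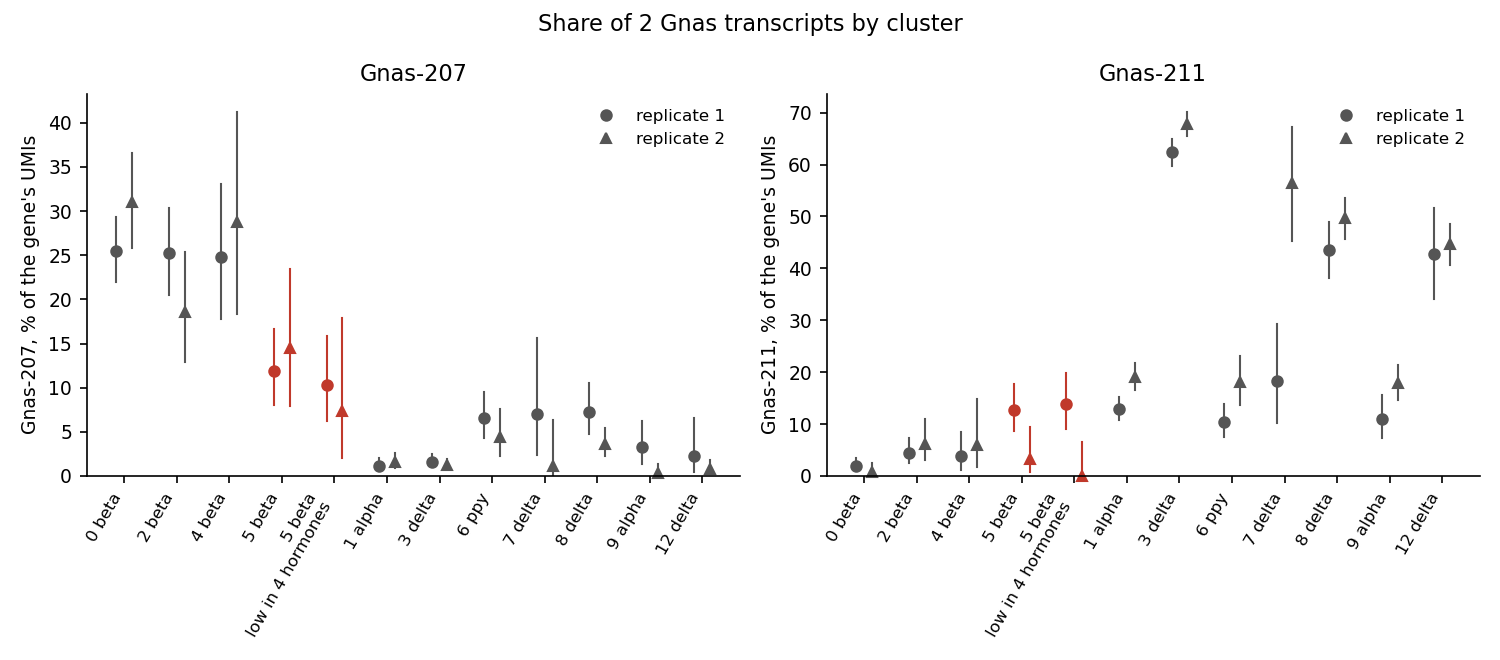
Share of Gnas UMIs assigned to Gnas-207 (left) and Gnas-211 (right), in percent with exact 95% binomial intervals, for cluster 5 and its low-hormone cells (both red) and the other clusters with at least 50 Gnas UMIs; circles are replicate 1 and triangles replicate 2. For Gnas-207 cluster 5, at 11.9% and 14.4%, lies between cluster 0 and the PP cluster; for Gnas-211 its replicates stand apart, at 12.7% and 3.33%.

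Coro2b and Rasgrf1 also passed against cluster 0 but had under 50 UMIs on a side, and are named after their values were seen: Coro2b-203 rested on 8 of 19 and 3 of 8 UMIs.

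Against the PP cluster 6 of 3633 genes passed (0.165%; 174 at an unadjusted p under 0.05). Tmem176a-207 made up 16.3% and 12.3% of its gene in cluster 5 and 2.44% and 2.73% in the PP cluster (edgeR adjusted p for the gene 0.00123, but 0.179 in the low-hormone cells and 0.137 without the block), and Pfn1-203, a retained-intron form of profilin, 17.8% and 12.2% against 6.41% and 4.31% (0.0125, and 1 without the block). Rpl22l1 and Gnas passed too (edgeR adjusted p 0.00111 each, and 1 without the block). For Rpl22l1 the difference came from replicate 2: Rpl22l1-204 made up 1.76% against 2.70% in replicate 1 and 4.11% against 20.9% in replicate 2. Also past the threshold were 2010111I01Rik and Rnase4 on fewer than 50 UMIs. Against delta cluster 3, 3 of 4115 genes passed (0.0729%; 125 unadjusted): Gnas, Tmem179b (edgeR adjusted p 0.0062, but 0.52 in the low-hormone cells) and, on few UMIs, Auts2. The main forms of the hormone genes held close to the same shares as in the PP cluster: Ppy-201 was 94.8% and 92.9% of Ppy in cluster 5 and 93.8% and 93.6% in the PP cluster, and Pyy-201 76.1% and 73.8% of Pyy against 75.1% and 72.0%.

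The authors' other clusterings of the same cells kept most of the group together. When replicate 1 was clustered alone on genes, 298 of the 315 cells fell in a single beta cluster of 572 cells, and in replicate 2 alone 44 of the 56 fell in a single cluster of 129 cells. Clustering both libraries on transcripts put 253 of 315 and 47 of 56 in a single beta cluster, where they made up most of its 332 and 63 cells. In replicate 2 alone on transcripts, 47 of the 56 fell in a cluster of 128 cells that the authors call delta. Defined by the clusters of each library alone, the group would be 11.9% and 11.8% of cells in place of 6.54% and 5.12%.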

How the data were processed

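The authors deposited raw UMI counts of each gene, and of each annotated transcript, by cell barcode; their cell table lists the cells they kept with a cluster for each. Per the submitters' processing notes the build was mm10 and Seurat was used; the aligner and counting tool are not given in the sources used here, nor which subset the tables are. No further filter on cells was applied, and doublets were scored with Scrublet (scanpy 1.11.5, expected rate 0.06) but not removed. Of 69994 transcripts, 69626 were joined to a gene through GENCODE M21, holding 99.9% of the UMIs of the 4 clusters; neither strand use nor the splitting of reads between overlapping or near-identical genes is stated.

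Counts were summed per library and cluster and divided by the sum's total (11012364 and 12092393 UMIs in the libraries), with 1 CPM added for log2 ratios and a minimum mean of 50 CPM. Gene comparisons were not tested, because the clusters were made from the same genes. Transcript shares were tested in edgeR 4.0.16 (transcripts with at least 10 UMIs and 5% of their gene), with the library as a block because each library gives every cluster; that test was run on simulated data first. DESeq2 1.42.0 gave alternative size factors. The labels name the same library for all cells of a table, which sets the replicate numbers.

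Genes named are the hormones, the 10 highest and 10 lowest by mean log2 ratio per comparison (without predicted, mitochondrial and ribosomal protein genes), up to 4 per list of 22 gene lists, and for transcripts the genes past the threshold with at least 50 UMIs on each side. The cluster and lists were chosen with earlier results of these data known, so a list's count is no independent evidence. Alternatives covered scaling, filters, the added CPM, each library alone, means over cells, doublet scores, hormone totals, the block and the other clusters in the fit. Some of the genes this rule names are not reported here.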

Additional observations from a re-analysis of the deposited data

How the results depend on the processing

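None of the genes with the largest ratios in each comparison changed the sign of its mean ratio under any setting tried. For each library alone this follows from the rule. None of the genes apart from cluster 0, the PP cluster or delta cluster 3 changed that sign in the low-hormone cells. Single libraries did: in the low-hormone cells of replicate 2, 5 of the 83 genes apart from cluster 0 and 1 of the 182 apart from delta cluster 3 had the opposite sign. Gcg, which was not apart from cluster 0, was at −0.32 in replicate 1 and 1.27 in replicate 2, and at −0.71 and −1.89 in the low-hormone cells. The share of Gnas-211 was above cluster 0 in each library but had 0 UMIs in the low-hormone cells of replicate 2. The expression filter moved the counts most: at a mean of 10 CPM 287, 1174 and 536 genes were apart, and with no filter 812, 2601 and 1453, in place of 83, 346 and 182. Against the PP cluster TMM scaling gave 215 and DESeq2 size factors 218. Leaving out each library in turn gave 110 to 123, 520 to 556 and 272 to 276. Leaving hormones out of the totals raised Iapp from 100110 to 115228 CPM and Ins2 from 4930 to 5675 CPM (means of 2 libraries), as the smaller total must. The authors' clustering of each library alone gave a share of 11.8% of cells in place of 5.83%. Without the replicate block, 1, 0 and 1 genes passed the transcript test in place of 4, 6 and 3 (76, 123 and 94 at an unadjusted p under 0.05, edgeR); the cause was not tested. With 1 library left the transcript test has no residual degrees of freedom, so only shares were given. The restriction to low-hormone cells, chosen after seeing the data, left 67, 389 and 221 genes apart and 4, 4 and 2 genes past the transcript test.

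Of 77 recomputed summary values, 60 stayed near the value reported and 17 moved. Of named genes' ratios, 436 stayed and 99 moved by more than the spread between the libraries. For levels and ratios, leaving out either library could not count as moved, because each library always lies within that spread of their mean. Those entries say nothing about stability. The 56 cells of replicate 2 and the shallow cells of replicate 1 limit the shares of cells. In each library the few UMIs of a gene under about 10 CPM limit what can be said of it. With 2 libraries, differences between them cannot be told apart from differences between animals, days or depth.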
